A study of Mus musculus with 3 samples.

Results

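The multidrug efflux pumps described here were 9 mouse genes of the ATP-binding cassette (ABC) family, *Abcb1a*, *Abcb1b*, *Abcc1*, *Abcc2*, *Abcc3*, *Abcc4*, *Abcc5*, *Abcc10* and *Abcg2*, out of 22911 genes with a named probe on the array. They were chosen by name as pumps of drugs and drug conjugates, and every probe whose RefSeq accession mapped to one of them was kept, which gave 16 probes. Their mRNA levels were compared in Colon26, a colon adenocarcinoma line from BALB/c mice, and its sublines LuM1, which is highly metastatic, and NM11, which is of low metastatic ability. All lines were kept in the same serum-containing medium with penicillin, streptomycin and amphotericin B, and no other drug is named. Cells were cultured for 3 days. Total RNA (0.1 µg) was labelled with Cy3 and hybridized to 1 array per line, 3 arrays in all. Each line is therefore 1 culture of 1 line, and LuM1 and NM11 stand for their metastatic classes by a single subline each. Differences between the lines have no replicate check on these arrays, so no test was run.

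Multidrug efflux pumps use the energy of ATP to move compounds out of the cell across the plasma membrane. P-glycoprotein, made in mice from *Abcb1a* and *Abcb1b*, and ABCG2 (breast cancer resistance protein) export many unmodified hydrophobic drugs, whereas the ABCC pumps (multidrug resistance proteins) mostly export organic anions, among them conjugates with glutathione, glucuronate and sulfate. In the gut epithelium P-glycoprotein, ABCG2 and ABCC2 lie in the apical membrane and ABCC3 in the basolateral membrane, and in cultured tumor cells a high level of such a pump is a known route to drug resistance.

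A signal below is the scanner's background-corrected brightness of a probe on a linear scale, multiplied by 1 factor per array so that the 75th percentile over all spots other than controls became 585. The error after each signal is the scanner software's own, 10.0% of a bright signal plus a small constant, and it describes technical error on 1 array only. Between 49.9% and 53.8% of the 56605 probes were called well above background on an array, and no spot was saturated. A probe below that call in a line was given a ceiling there, namely the dimmest brightness that still passed the call on its array (26.4 in Colon26, 20.1 in LuM1 and 19.6 in NM11 cells) or the probe's own value if larger, and a ratio against such a ceiling is worded with "at least". Signals of different probes are not set against each other, since probes differ in how strongly they bind.

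Promoter windows, from 250 bases before to 50 after an annotated start, were at hand for 7 of the 9 genes (*Abcb1a*, *Abcb1b*, *Abcc2*, *Abcc4*, *Abcc5*, *Abcc10* and *Abcg2*), 11 windows in all from RefSeq on the build GRCm38.p6. The windows of both P-glycoprotein genes are shown because these neighbors differed in how they varied between the lines, and the most GC-rich of the 3 windows of *Abcg2* because this gene had the widest difference of the set. They lie on the plus strand at chr5:8566841-8567140 (*Abcb1a*), chr5:8797897-8798196 (*Abcb1b*) and chr6:58640296-58640595 (*Abcg2*). Capitals mark the letters of any motif searched on either strand.
*Abcb1a*: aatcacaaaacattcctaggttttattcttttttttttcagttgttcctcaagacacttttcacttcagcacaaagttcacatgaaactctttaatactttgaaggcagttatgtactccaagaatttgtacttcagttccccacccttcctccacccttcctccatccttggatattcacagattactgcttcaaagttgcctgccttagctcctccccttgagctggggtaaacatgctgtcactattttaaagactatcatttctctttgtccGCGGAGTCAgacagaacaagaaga
*Abcb1b*: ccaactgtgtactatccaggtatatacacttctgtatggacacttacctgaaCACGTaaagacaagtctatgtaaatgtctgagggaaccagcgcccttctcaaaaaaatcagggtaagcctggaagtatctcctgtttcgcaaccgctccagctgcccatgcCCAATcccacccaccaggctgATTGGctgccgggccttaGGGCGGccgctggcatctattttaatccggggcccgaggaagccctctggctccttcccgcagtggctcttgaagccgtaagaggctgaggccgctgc
*Abcg2*: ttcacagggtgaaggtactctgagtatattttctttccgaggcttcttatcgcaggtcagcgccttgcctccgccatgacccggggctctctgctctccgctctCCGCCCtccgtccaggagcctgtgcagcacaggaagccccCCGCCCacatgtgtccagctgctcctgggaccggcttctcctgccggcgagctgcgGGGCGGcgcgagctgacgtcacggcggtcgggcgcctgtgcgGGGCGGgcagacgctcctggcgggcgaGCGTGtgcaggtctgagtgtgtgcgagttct

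The motifs searched were the GC box GGGCGG, the inverted CCAAT box ATTGG, the hypoxia response core ACGTG, the xenobiotic response core GCGTG, the TATA box TATAAA, the AP-1 site TGANTCA and the antioxidant response core TGACNNNGC. Of all 32851 RefSeq windows of this length, 35.7% hold a GC box, 37.4% an inverted CCAAT box, 19.6% the hypoxia core, 32.4% the xenobiotic core, 13.6% the TATA box, 7.81% the AP-1 site and 12.4% the antioxidant core. The *Abcb1a* window was AT-rich, with 40.3% GC against a median of 52.7% over all windows, and its only match was 1 antioxidant core. The *Abcb1b* window had 55.0% GC with 1 GC box, 2 inverted CCAAT boxes and 1 hypoxia core. The *Abcg2* window had 67.0% GC with 4 GC boxes and 1 xenobiotic core. Over the 11 windows of the pump genes, 6 held a GC box, 6 the antioxidant core, 3 an inverted CCAAT box, 2 the hypoxia core, 2 the xenobiotic core, 2 the TATA box and 0 the AP-1 site. Windows of the same gene were counted separately. Those with the antioxidant core came from *Abcb1a*, *Abcc2*, both starts of *Abcc4* and both of *Abcc10*, so they are not independent genes. These are matches of letters in short windows and not evidence of binding.

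On each array 7 of the 9 genes and 12 of the 16 probes were well above background, although not the same genes on every array. Of all 22911 named genes, 13032 passed this call in Colon26, 13718 in LuM1 and 13548 in NM11 cells. *Abcb1a*, *Abcb1b*, *Abcc1*, *Abcc4*, *Abcc5* and *Abcc10* were above background in all 3 lines, *Abcc3* in Colon26 and NM11 cells, *Abcg2* in LuM1 cells alone, and *Abcc2* in no line. Between LuM1 and Colon26 cells, 2 of the 8 genes with a signal (*Abcb1a* and *Abcg2*) reached a 2-fold higher level in LuM1, as did 12.9% of all genes, and 0 reached a 2-fold lower one, as did 11.7%. Between LuM1 and NM11 cells, 1 of 8 (*Abcg2*) was at least 2-fold higher in LuM1 cells against 11.1% of all genes, and 0 were lower against 8.50%. Between NM11 and Colon26 cells, 1 of 7 (*Abcb1a*) was at least 2-fold higher in NM11 cells against 8.17% of all genes, and 0 were lower against 7.74%. With so few genes these counts do not set the pumps apart from the array as a whole. Both LuM1 comparisons share the LuM1 array and both Colon26 comparisons share the Colon26 array, so the contrasts are not independent. In RNA from whole cultures, fewer cells that express a gene cannot be told apart from less RNA per cell.

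**Figure D1:**
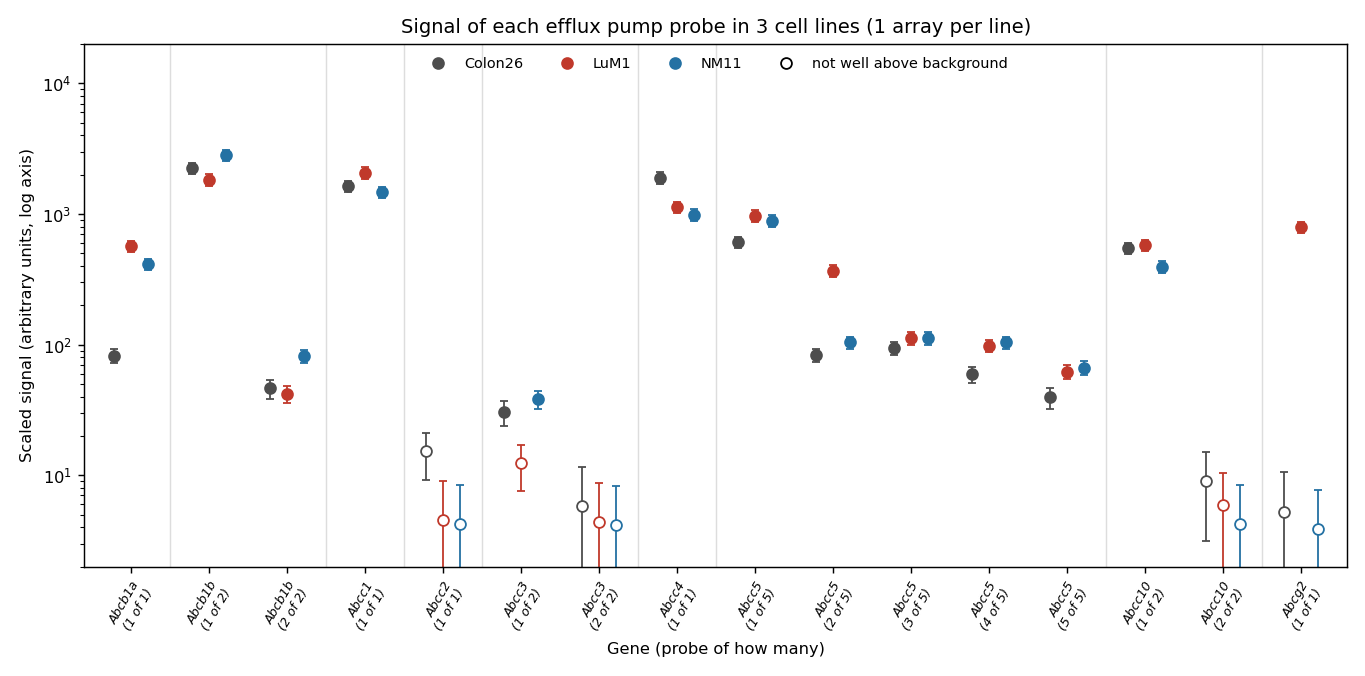
Scaled signal (log axis, arbitrary units) of the 16 efflux pump probes on the Colon26 (gray), LuM1 (red) and NM11 (blue) arrays, 1 array per line. Bars are the scanner error and run off the axis where they reach below it, and open circles mark signals not well above background. *Abcg2* lies at 789 in LuM1 cells against 5.26 and 3.87 in the other lines, and *Abcb1a* lies at 568 and 414 in the sublines against 81.8 in Colon26 cells.

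*Abcb1a* was the pump that was more than 2-fold higher in both sublines than in the parental line. It encodes the P-glycoprotein of mouse gut epithelium and brain capillaries. Its probe (A_55_P1969477) gave signals of 81.8 ± 9.97 in Colon26, 568 ± 57.0 in LuM1 and 414 ± 41.6 in NM11 cells, 3.10, 28.2 and 21.2 times the lowest signal above background on the respective array. Both sublines were high and the parental line was low. The level in LuM1 cells was 6.94-fold that in Colon26 cells (log2 ratio 2.80, scanner error 0.23), and 3.57% of all genes tested were at least as far up. The level in NM11 cells was 5.06-fold that in Colon26 cells (log2 2.34, scanner error 0.23), with 2.72% of genes at least as far up. LuM1 cells had 1.37-fold the NM11 level (log2 0.45, scanner error 0.20), a difference in which 23.4% of genes were at least as far up. The level over Colon26 cells lay between 3.96-fold and 9.46-fold for LuM1 and between 3.05-fold and 5.18-fold for NM11 cells over the alternatives, with the lower end in each case from the normexp background correction. *Abcb1a* was read by 1 probe, so no other probe checks this difference. Of the 213 spots around its spot (within 10 rows and 5 columns), 8.45% were at least 2-fold higher for NM11 over Colon26, against 3.58% of all spots, and 1.77% of spots had so high a share around them. On the NM11 array alone, 5.63% of these spots were well above background, against 2.14% of all. For LuM1 over Colon26 the share at least 2-fold higher was 6.57%, against 6.44% of all. The part of these surroundings in the *Abcb1a* ratios was not tested.

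*Abcb1b*, which encodes the P-glycoprotein of mouse adrenal gland, kidney and pregnant uterus and is the next named gene along chromosome 5, did not vary with *Abcb1a*. Its brighter probe (A_51_P245368) gave 2240.3 ± 224 in Colon26, 1833 ± 183 in LuM1 and 2824 ± 282 in NM11 cells, so NM11 cells were highest and LuM1 cells lowest. Its dimmer probe (A_52_P92772) gave 46.2 ± 7.57 in Colon26, 41.8 ± 6.21 in LuM1 and 81.3 ± 9.20 in NM11 cells, again with NM11 cells highest. On that probe LuM1 and Colon26 cells differed by less than the scanner error (log2 -0.15, error 0.32). LuM1 over NM11 was the largest of its differences, with a ratio of 0.649 (log2 -0.62, scanner error 0.20) on the brighter probe and 0.514 (log2 -0.96, scanner error 0.27) on the dimmer one. The log2 ratio of LuM1 over Colon26 was -0.29 on the brighter probe, 1.42 times its scanner error, and turned to 0.16 in the value table of the series. That of NM11 over Colon26 was 0.33, 1.64 times its scanner error, and turned to -0.15 when *Hprt* was set equal on all arrays. The side of Colon26 on which *Abcb1b* lay in each subline thus depended on the scaling, whereas its ratio of LuM1 over NM11 stayed below 1 in every alternative, from 0.577 to 0.977. The sequences of *Abcb1a* and *Abcb1b* transcripts are alike, and cross-binding of their probes was not tested.

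**Figure D2:**
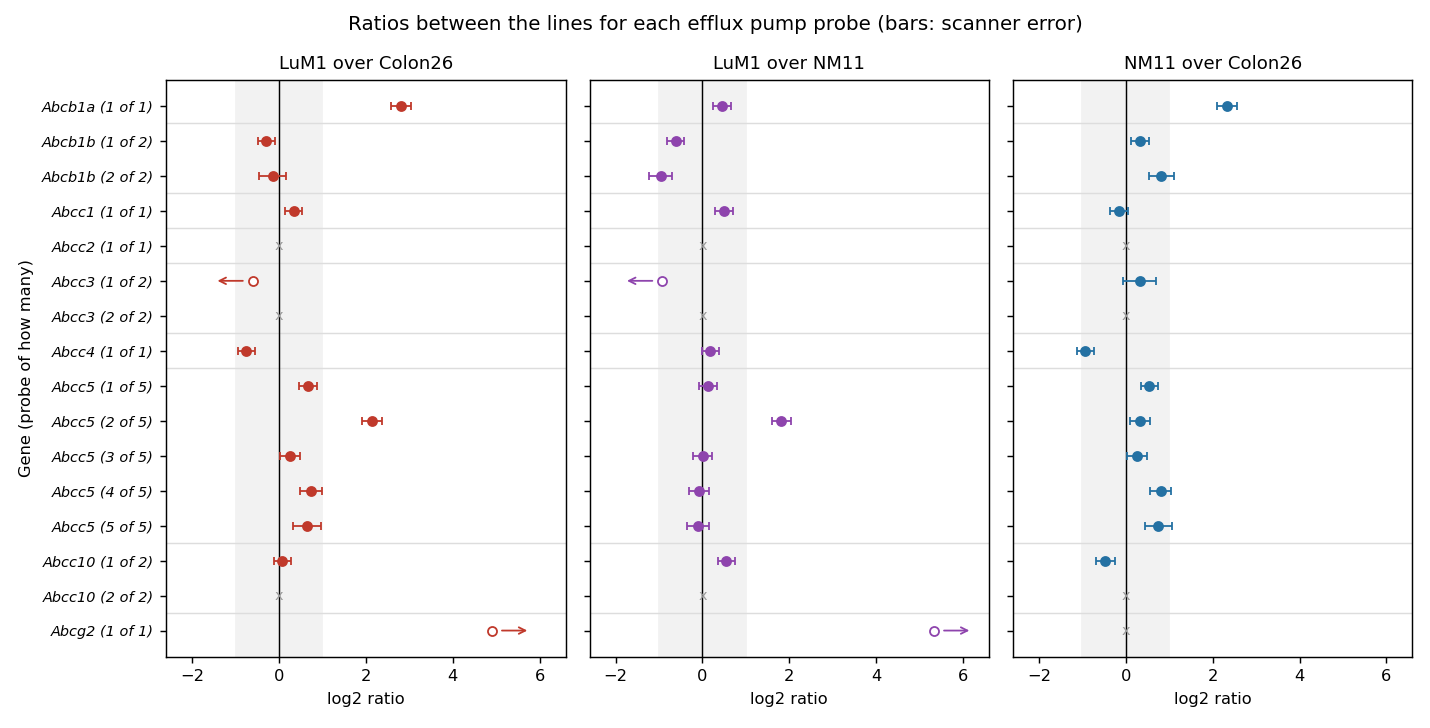
The log2 ratios of the 16 probes in the 3 contrasts, with bars for the scanner error, open circles with arrows for bounds, crosses where both arrays were below background, and the range within 2-fold shaded. *Abcb1a* lies to the right at 2.80 and 2.34 over Colon26, while the brighter *Abcb1b* probe lies at -0.29 and 0.33, signs that turn in the value table of the series (LuM1) and when scaled to *Hprt* (NM11).

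*Abcg2*, which encodes a pump of mitoxantrone, topotecan, urate and porphyrins that also marks side-population cells, was the pump with the widest difference and the only one well above background in LuM1 cells alone. Its probe (A_55_P1996504) gave 789 ± 79.0 in LuM1 cells, 39.2 times the lowest signal above background, against 5.26 ± 5.28 in Colon26 and 3.87 ± 3.88 in NM11 cells, where the signal equals its error and gives no level. LuM1 cells thus had at least 29.9-fold the level of Colon26 cells, a bound that 0.975% of genes reached, and at least 40.3-fold that of NM11 cells, a bound that 0.416% reached. Colon26 and NM11 cells could not be ordered. Over all alternatives the bound was no less than 11.8-fold against Colon26 and 12.2-fold against NM11, the lowest after the normexp correction, which lifts dim signals. Of the 216 spots around the *Abcg2* spot (within 10 rows and 5 columns), 2.31% were well above background on the LuM1 array alone, against 3.49% of all spots. These surroundings stood apart in the other direction, with 8.33% well above background on the Colon26 array alone against 1.89% of all, and 15.3% at least 2-fold lower for LuM1 over Colon26 against 6.38%. For NM11 over Colon26 15.3% were lower as well, against 4.30%. Their part in the *Abcg2* values was not tested.

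Among the ABCC pumps, *Abcc1* and *Abcc10* were higher in LuM1 than in NM11 cells, *Abcc5* was higher in both sublines than in Colon26 cells and *Abcc4* was lower in both, each by less than 2-fold on the probe that stands for the gene. *Abcc1*, the exporter of leukotriene C4 and glutathione conjugates, gave 1634 ± 163 in Colon26, 2067 ± 207 in LuM1 and 1463 ± 146 in NM11 cells (A_52_P491507). Its ratio of LuM1 over NM11 was 1.41 (log2 0.50) and that of LuM1 over Colon26 was 1.27 (log2 0.34), both beyond the scanner error of 0.20. NM11 over Colon26, at a log2 ratio of -0.16, was within it. *Abcc10*, a pump of taxanes in transfected cells, gave 547 ± 54.9, 576 ± 57.8 and 394 ± 39.7 in Colon26, LuM1 and NM11 cells on its brighter probe (A_55_P2020743). LuM1 and Colon26 cells differed by less than the scanner error (log2 0.08, error 0.20), and NM11 cells were lower than both, by a log2 ratio of -0.47 to Colon26 cells and with LuM1 over NM11 at 0.55. The second *Abcc10* probe (A_51_P464340) was not well above background in any line, with signals from 4.23 to 9.04. The gene *Dlk2* overlaps *Abcc10* in the annotation.

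*Abcc4*, which exports cyclic nucleotides, prostaglandins and nucleoside analogs, gave 1888 ± 189 in Colon26, 1125 ± 113 in LuM1 and 990.0 ± 99.1 in NM11 cells (A_52_P630867), so the parental line was high and both sublines were low. The ratio over Colon26 cells was 0.596 for LuM1 (log2 -0.75, scanner error 0.20) and 0.524 for NM11 (log2 -0.93, scanner error 0.20), while the sublines differed by less than the scanner error (log2 0.18). In NM11 cells 8.70% of genes were at least as far down, and the ratio passed 2-fold without scaling (log2 -1.01), scaled to E1A spike-in spots (-1.25) and scaled to *Hprt* (-1.42). *Abcc4* lay on the opposite side from *Abcb1a*, and it was lower than in Colon26 cells in both sublines under all alternatives.

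*Abcc5*, which exports cyclic nucleotides and nucleotide analogs, was read by 5 probes, all well above background in every line. The brightest (A_51_P116421) gave 609 ± 61.2 in Colon26, 967 ± 96.8 in LuM1 and 885 ± 88.6 in NM11 cells, so the sublines differed by less than the scanner error and both lay above the parental line, by 1.59-fold and 1.45-fold. Scaled to *Hprt*, the ratio of NM11 over Colon26 was 1.04, within the scanner error, and that of LuM1 over NM11 was 1.64, beyond it. In the value table LuM1 over Colon26 passed 2-fold, at 2.16. The probe A_55_P2073935 stood apart, with 83.3 ± 9.97 in Colon26, 367 ± 36.9 in LuM1 and 104 ± 11.2 in NM11 cells. It alone of the 5 passed 2-fold, at 4.41-fold against Colon26 and 3.53-fold against NM11, where 12.0% and 10.0% of all named probes reached 2-fold. The other 4 probes gave ratios from 1.20 to 1.66 for LuM1 over Colon26, from 0.935 to 1.09 for LuM1 over NM11 and from 1.19 to 1.75 for NM11 over Colon26. Of the 214 spots around this probe, 16.4% were well above background on the LuM1 array alone, against 3.49% of all spots, and 0.209% of spots had so high a share around them. The same share was 8.68% around the probe A_55_P2595014, whose ratio of LuM1 over Colon26 was 1.20, and between 0.926% and 3.23% around the other *Abcc5* probes. The part of these surroundings in the 4.41-fold ratio was not tested. Without that probe the mean log2 ratio over the *Abcc5* probes was 0.58 for LuM1 over Colon26, -0.01 for LuM1 over NM11 and 0.59 for NM11 over Colon26, an alternative added after the values were seen.

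*Abcc3*, a basolateral pump of glucuronides and bile acids, was dim. Its brighter probe (A_55_P1985623) gave 30.5 ± 6.59 in Colon26 and 38.1 ± 5.70 in NM11 cells, 1.15 and 1.95 times the lowest signal above background, and 12.3 ± 4.72 in LuM1 cells, where it was not well above background. LuM1 cells were at least 1.51-fold lower than Colon26 and at least 1.89-fold lower than NM11 cells, bounds that lay at 1.11-fold against Colon26 in the value table and at 1.26-fold against NM11 scaled to *Hprt*. NM11 and Colon26 cells did not differ beyond the scanner error (log2 0.32, error 0.38), and this ratio turned to -0.17 when scaled to *Hprt* and to -0.00 when scaled to the E1A spots. The second *Abcc3* probe (A_52_P622067) was not above background in any line. *Abcc2*, the apical pump of bilirubin glucuronides in the liver, was well above background in no line, with signals of 15.2 ± 5.99 in Colon26, 4.53 ± 4.54 in LuM1 and 4.21 ± 4.23 in NM11 cells (A_51_P277745). The scanner software called the Colon26 signal significantly above background, and the other two equalled their errors.

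Taken by line at the main scaling, LuM1 cells were highest for *Abcg2*, *Abcb1a* and *Abcc1*, NM11 cells for *Abcb1b* and Colon26 cells for *Abcc4*. For *Abcb1b* the ratio of NM11 over Colon26 was 0.898 scaled to *Hprt* and 1.01 with the E1A spots. Neighbors in the order of the lines that differed by less than the scanner error were Colon26 and NM11 for *Abcc1* and *Abcc3*, LuM1 and NM11 for *Abcc4* and *Abcc5*, and LuM1 and Colon26 for *Abcc10*. Among the 6 genes above background in every line, the range between the highest and lowest line was 6.94-fold for *Abcb1a* and between 1.41-fold (*Abcc1*) and 1.91-fold (*Abcc4*) for the other 5. The median log2 ratio over the pumps measured on both arrays was 0.21 for LuM1 over Colon26 (6 genes, 4 of them higher). Over 12397 genes it was -0.13, with 41.7% higher. For LuM1 over NM11 the pump median was 0.32 (6 genes, 5 higher), against -0.11 over 12851 genes (43.0% higher). For NM11 over Colon26 it was 0.32 (7 genes, 4 higher), against -0.02 over 12471 genes (48.0% higher). The last majority turned with the scaling, to 2 of 7 higher scaled to *Hprt* and 3 of 7 with the E1A spots.

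**Figure D3:**
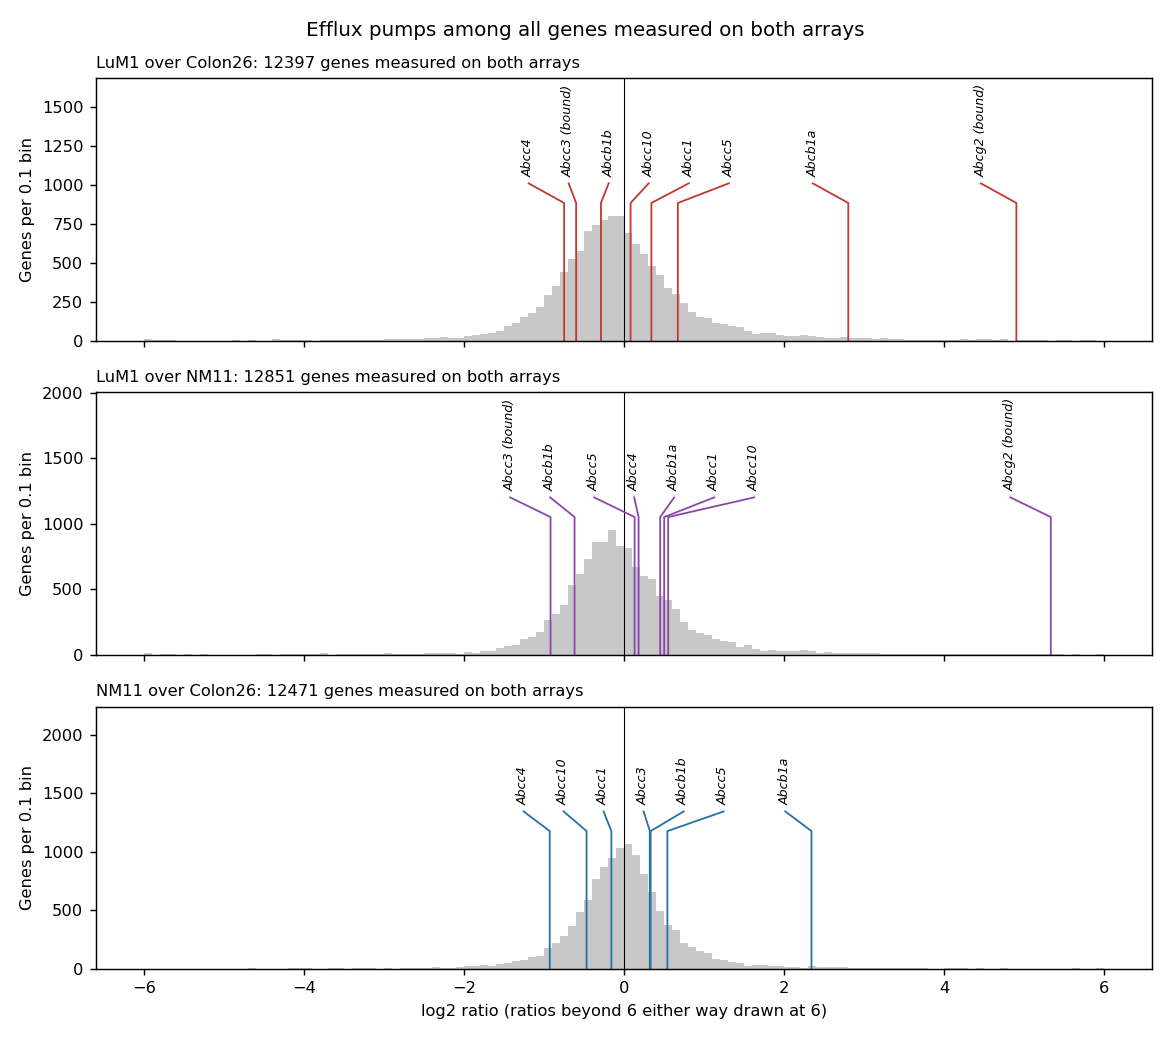
Histograms of the log2 ratios of all genes measured on both arrays (gray, in bins 0.1 wide), with a line for each efflux pump at its own ratio and bounds labelled as such. In the top panel *Abcb1a* at 2.80 and *Abcg2* at 4.90 or more lie in the right tail and the other measured pumps lie within 1 of zero. In the bottom panel *Abcb1a* at 2.34 alone lies outside that range.

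The choice of scaling moved all ratios of a pair of arrays together. Relative to the 75th percentile, the median log2 ratio of LuM1 over NM11 shifted by 0.59 when *Hprt* was set equal, by 0.41 in the value table, by 0.32 with the E1A spots and by 0.18 without scaling. That of NM11 over Colon26 shifted by -0.49 with *Hprt* and by -0.32 with the E1A spots, and that of LuM1 over Colon26 by 0.45 in the value table and by 0.11 without scaling. Under *Hprt* scaling 4 pumps (*Abcb1a*, *Abcc1*, *Abcc10* and *Abcg2*) passed 2-fold for LuM1 over NM11 in place of 1, with *Abcb1a* at a log2 ratio of 1.04. That shift of 0.59 raised the other genes as well. The share of all genes past 2-fold under it is not given here, so the 4 pumps are not set against the array as a whole. The calls of *Abcb1a* over Colon26 cells in both sublines and of *Abcg2* over both other lines were made in every scaling and after the normexp correction.

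**Figure D4:**
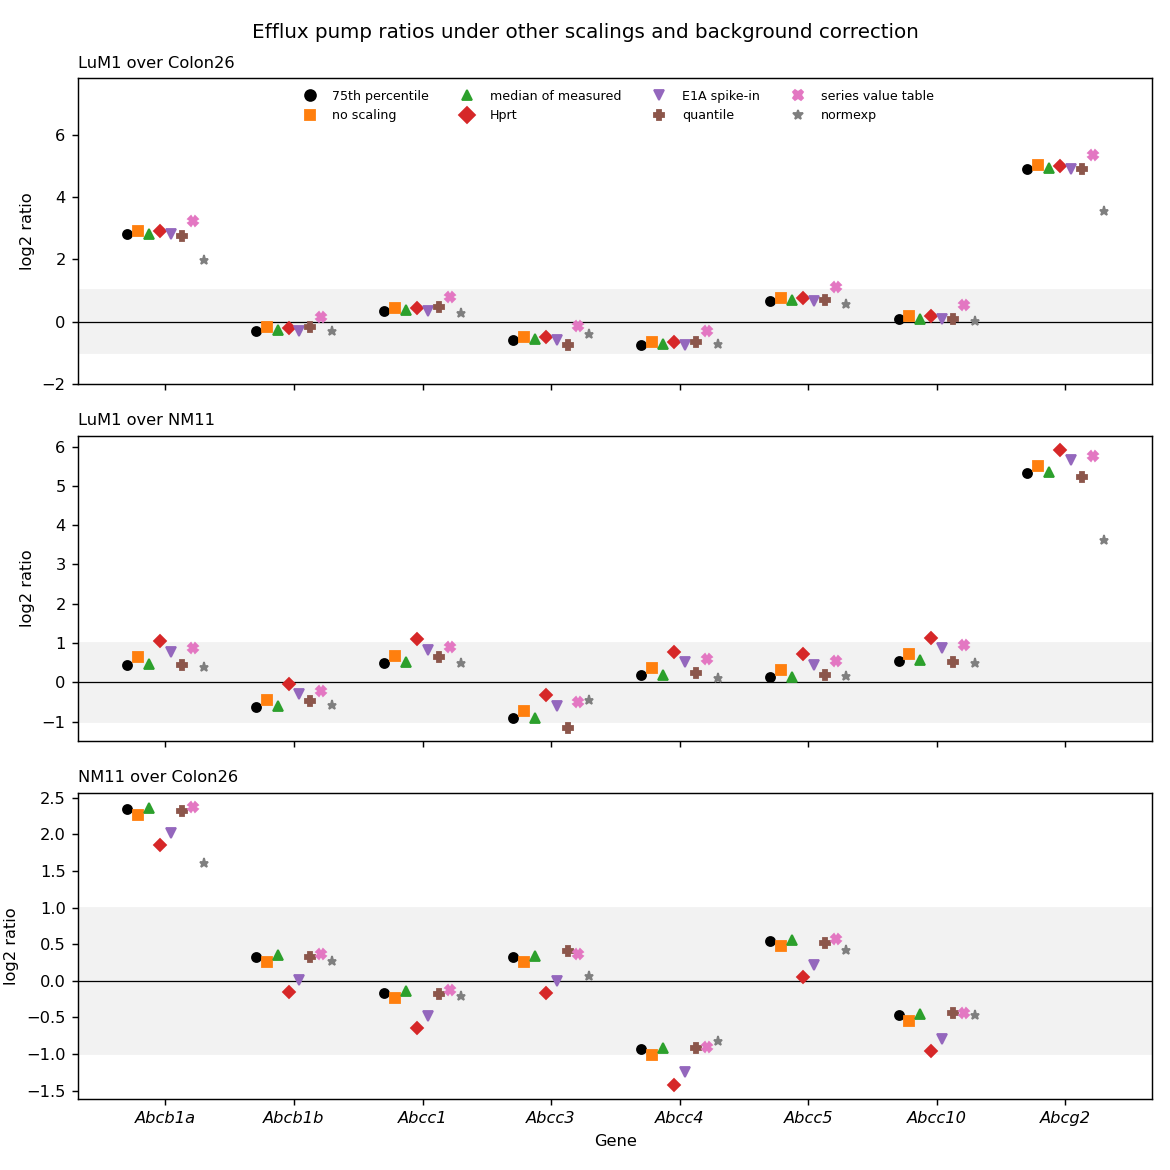
The log2 ratios of 8 efflux pumps in the 3 contrasts (panels) under the 75th percentile (black circles), 6 other scalings and the normexp background correction, with the range within 2-fold shaded; values of *Abcg2* and of *Abcc3* in LuM1 cells are bounds. *Abcb1a* over Colon26 and *Abcg2* stay outside the shaded range throughout, whereas *Abcb1b* crosses zero in the top panel (value table, 0.16) and the bottom panel (*Hprt*, -0.15), as does *Abcc3* in the bottom panel (*Hprt*, -0.17).

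The genes around *Abcb1a* and *Abcb1b* on chromosome 5 were then read in order, a choice made after the pump values were seen. *Rundc3b*, a RUN domain gene whose annotated span overlaps that of *Abcb1a*, gave 28.8 ± 6.67 in Colon26 cells, where it was not well above background, 174 ± 18.0 in LuM1 and 74.0 ± 8.63 in NM11 cells. It was at least 6.03-fold higher in LuM1 and at least 2.57-fold higher in NM11 than in Colon26 cells, so that like *Abcb1a* it was high in both sublines, and the bounds fell to 2.52-fold in LuM1 and 1.44-fold in NM11 cells after the normexp correction and the NM11 bound to 1.83-fold scaled to *Hprt*. On the other side of *Abcb1b* lies *Abcb4*, the phospholipid pump of bile. Its brighter probe (A_51_P249118) gave 1366 ± 137, 1510.4 ± 151 and 2125 ± 213 in Colon26, LuM1 and NM11 cells. NM11 cells were highest on this probe, as for *Abcb1b* at the same scaling. The second *Abcb4* probe (A_52_P223194) was not well above background in any line, with signals of 5.75, 4.35 and 4.16. The remaining neighbors *Dbf4*, *Slc25a40*, *Crot*, *Tmem243* and *Dmtf1* had log2 ratios between -0.92 and 0.78 over Colon26 cells, and *Adam22* was above background in no line. Around *Abcg2* on chromosome 6, *Herc3*, *Nap1l5* and *Fam13a* on one side and *Vmn1r31* on the other were above background in no line. The third gene on that other side, *Vmn1r29*, was above background in LuM1 cells alone (214), at least 8.11-fold over Colon26 cells. The gene between these, *Vmn1r30*, gave 61.2, 46.1 and 62.5 in Colon26, LuM1 and NM11 cells, and *Tigd2*, beyond *Fam13a*, gave 219, 243 and 437.

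**Figure D5:**
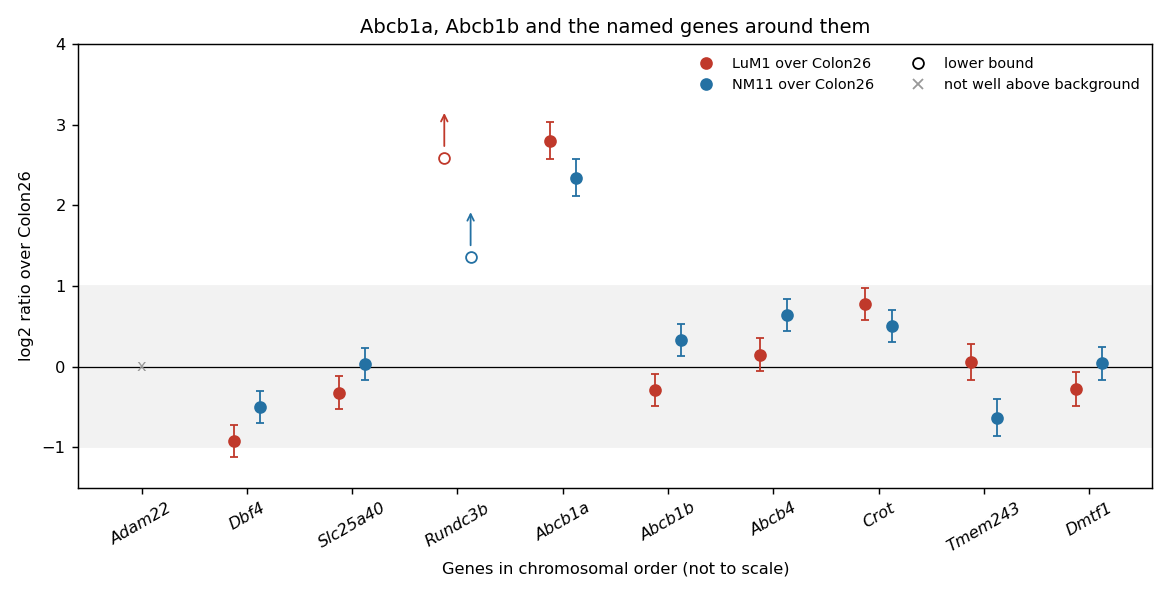
The log2 ratios over Colon26 of LuM1 (red) and NM11 (blue) cells for *Abcb1a*, *Abcb1b* and the 4 named genes on either side in chromosomal order (not to scale), with bars for the scanner error, open circles with arrows for lower bounds and a cross where no array was well above background. *Abcb1a* (2.80 and 2.34) and *Rundc3b* (at least 2.59 and 1.36) stand above the shaded 2-fold range, and the NM11 bound of *Rundc3b* falls to 0.87 scaled to *Hprt*.

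Among the 12248 other genes above background in all 3 lines, those closest to *Abcb1a* in their log2 profile over the 3 arrays were *Tnfrsf9* (the costimulatory receptor 4-1BB), *Pogk* and *Atat1* (a tubulin acetyltransferase). The largest difference in centered log2 signal on any array was 0.010 for *Tnfrsf9*, 0.031 for *Pogk* and 0.037 for *Atat1*. *Tnfrsf9* gave signals of 689, 4754 and 3513 in Colon26, LuM1 and NM11 cells. With 3 points, likeness is a description, and 16 genes lay within 0.2 of *Abcb1a* on every array.

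Lists of related genes were counted by the same rule. Of the 9 nearest ABC relatives, 5 had a signal for LuM1 over Colon26, and *Abcg1*, a cholesterol exporter, and *Abcg4* were at least 2-fold higher (log2 2.45 and 1.41) while *Abcc12* was lower, against 12.9% and 11.7% of all genes. For LuM1 over NM11, 1 was higher (*Abcg1*, 5.98) and 0 were lower of 4, against 11.1% and 8.50%. For NM11 over Colon26, 1 was higher (*Abcg4*, 1.86) and 2 were lower of 5 (*Abcg1*, -3.52, and *Abcc12*), against 8.17% and 7.74%. Of 13 transcription factors and sensors known to act on pump genes, 1 passed 2-fold upward and 0 downward for LuM1 over Colon26, against 12.9% and 11.7% of all genes. This was *Hif1a*, the hypoxia-inducible factor subunit, with a log2 ratio of 1.41 and 1.03 over NM11 cells. Against NM11 cells *Ahr*, the receptor of dioxin-like compounds, and *Ybx1*, a Y-box protein, were lower in LuM1 cells (log2 -1.12 and -1.11), which made 1 higher and 2 lower of 13, against 11.1% and 8.50% of all genes. For NM11 over Colon26 *Foxo3* was higher (1.04) and 0 were lower, against 8.17% and 7.74%. *Nr1i2*, the xenobiotic receptor PXR, was above background in no line, and *Nfe2l2* had log2 ratios of 0.21, -0.19 and 0.41 for LuM1 over Colon26, LuM1 over NM11 and NM11 over Colon26.

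Of 14 enzymes that make glutathione or conjugate drugs for the ABCC pumps, 3 passed 2-fold upward and 4 downward for LuM1 over Colon26, against 12.9% and 11.7% of all genes. *Gstt1* was at least 2-fold higher over both other lines, at a log2 ratio of 4.80 over NM11 cells, and *Gstm2* was lower than in both (-2.01 and -3.73). *Gsta4* was lower in both sublines than in Colon26 cells (-2.81 and -1.93). The transferases *Gstp1*, *Gstm1* and *Gsto1* stayed within 2-fold in every contrast, with log2 ratios from -0.42 to 0.47. The others past 2-fold were *Mgst1* and *Ugt1a6a*, higher, and *Gss* and *Mgst3*, lower (-1.04 and -1.11). For LuM1 over NM11, 1 was higher and 2 were lower (*Gstm2* and *Mgst1*, the latter at -2.56), against 11.1% and 8.50% of all genes. For NM11 over Colon26, 3 were higher (*Gstm2*, *Gstt1* and *Mgst1*) and 1 was lower, against 8.17% and 7.74%. The median log2 ratio of those measured on both arrays was -0.49 for LuM1 over Colon26.

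Beside the counts of scaffolds and carriers stand the shares of all genes, 12.9% higher and 11.7% lower for LuM1 over Colon26, 11.1% and 8.50% for LuM1 over NM11, and 8.17% and 7.74% for NM11 over Colon26. Of 9 membrane scaffolds and anchors, 1 was higher and 2 were lower in LuM1 than in Colon26 cells. *Slc9a3r2*, a PDZ scaffold, was higher (log2 1.48, and 2.51 over NM11 cells), and *Cav1*, the caveolae coat protein, and *Rdx* were lower (-1.64 and -1.14). Against NM11 cells 3 were higher, with *Slc9a3r1* (1.27) and *Pim1* (1.22) beside *Slc9a3r2*, and 3 were lower, with *Cavin1* beside *Cav1* (-1.97) and *Rdx* (-1.16). For NM11 over Colon26, 0 were higher and both *Slc9a3r1* and *Slc9a3r2* were lower (-1.15 and -1.03). Drug uptake carriers differed in both directions, with 3 of 11 higher and 5 lower in LuM1 than in Colon26 cells and a median log2 ratio of -1.01 over those measured on both arrays. The organic anion carrier *Slco4a1* was at 10461 against 473 (log2 4.47) and *Slco2a1*, a prostaglandin carrier, at 269 against 42.8 (2.65), with *Slco2b1* above background in LuM1 cells alone. *Slco1a5* was at 34.3 against 674 (-4.30), and the nucleoside carriers *Slc29a1* and *Slc29a2* (-1.01 and -1.71), the folate carrier *Slc19a1* (-1.03) and *Slc22a4* (-1.18) were lower. Against NM11 cells 3 of 13 carriers were higher (*Slco4a1*, *Slco2a1* and *Slco2b1*) and 3 were lower (*Slco1a5*, *Slc29a2* and *Slc19a1*), and for NM11 over Colon26 1 of 11 was higher (*Slco4a1*, 2.03) and 1 was lower (*Slc29a1*, -1.01). Beyond the 3 genes per list with the largest measured ratio, the genes of these lists were named after their values were seen. The choice of scaling shifted the log2 ratios of a contrast by up to 0.59. Calls close to 2-fold in these lists, such as those of *Foxo3*, *Gss* and *Slc19a1*, therefore depend on the scaling.

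Defining markers went only in part with the label of a colon adenocarcinoma. Of 10 colon epithelial markers, 4 were well above background in Colon26, 5 in LuM1 and 4 in NM11 cells, among them *Cdx2*, *Krt20*, *Lgals4* and *Krt8* in all lines, while *Cdh1*, *Krt18*, *Vil1*, *Cdx1* and *Cldn3* were above background in none. Their summed signal was 1362 in Colon26, 523 in LuM1 and 459 in NM11 cells. In the same order *Krt20* gave 651, 54.5 and 157, *Cdx2* 443, 232 and 167 and *Lgals4* 198, 71.7 and 68.2. *Krt8* went the other way in LuM1 cells (28.9, 108 and 37.1), and *Epcam* was above background there alone (28.0). For LuM1 over Colon26, 1 of 5 was at least 2-fold higher and 2 were lower, against 12.9% and 11.7% of all genes. For NM11 over Colon26, 0 of 4 were higher and 3 were lower, against 8.17% and 7.74%. Of 6 fibroblast markers, 5 were above background in Colon26 cells and 6 in each subline, with summed signals of 66325, 35900.2 and 105807 in Colon26, LuM1 and NM11 cells. These sums rest on the brightest probes, and the fibroblast genes went both ways. In LuM1 against Colon26 cells 3 of 6 were at least 2-fold higher and 2 lower, against 12.9% and 11.7% of all genes. *Col1a2* gave 59896 in Colon26, 49.6 in LuM1 and 85275 in NM11 cells, whereas *Dcn* gave 6.07 (not well above background), 27503 and 9599, *Pdgfra* 218, 3965 and 1286, and *Col3a1* 294, 1169.6 and 2655. *Col1a1* was lower in LuM1 (log2 -1.13) and *Pdgfrb* differed by less than the scanner error (-0.04). Leukocyte markers summed to 5893, 12772 and 5233, with *Ptprc* and *Adgre1* above background in no line. The higher LuM1 sum came mainly from *Cd68*, at 172, 5251 and 299 in Colon26, LuM1 and NM11 cells, while *Csf1r* gave 682, 691 and 675 and *Itgam* 5027, 6818 and 4251. Endothelial markers summed to 68.5, 66.0 and 93.9, with *Cdh5*, *Kdr* and *Tek* above background in none. The part of these markers in the pump levels was not tested.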

How the data were processed

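Total RNA from 3 cell lines was read on Agilent single-color SurePrint G3 mouse arrays, 1 array per line. The deposited scanner files (Agilent Feature Extraction 11.5.1.1) give an intensity per spot, background-subtracted and not scaled between arrays, and flags for outlier spots and for spots significantly or well above background. The deposited value table of the series holds the same intensity after multiplication of Colon26 by 0.654, of LuM1 by 0.829 and of NM11 by 0.706. No normalization is named in the sources used here. No columns of other samples were present (0 left out).

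Control and outlier spots (137, 74 and 99) were dropped, probes printed 10 times were averaged, and arrays were brought to a common 75th percentile (581, 625 and 552 in Colon26, LuM1 and NM11 as deposited). Within an array, the median SD among spots of such a probe was 0.035 to 0.040 (log2). Probes were named through RefSeq accessions in a gene table of GRCm38.p6, which named 32994 of 56605 probes (58.3%). The array was designed on an older assembly, so no probe coordinates are given. A gene's value was that of its probe with the brightest mean (log2, 3 arrays). A gene was called at 2-fold, bounds counted. With 1 array per line no test was possible, and the precision is limited by the number of arrays. The call rule was run on simulated data with changes set well beyond 2-fold in genes with a clear signal. This run does not bear on dim signals, on bounds or on variation between cultures.

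All 9 pumps with every probe were named, the 3 genes per list with the largest ratio measured on both arrays among those at least 2-fold apart, and the 3 genes most like the pump with the widest range in all lines. The members and lists were chosen with earlier results of these data known. The 13 alternatives tried were 5 other scalings, normexp correction with an offset of 50, the value table, 2 looser detection rules, 2 other probe choices and thresholds of 1.5-fold and 4-fold. The normexp correction used the median brightness of each spot. Python 3.11.15, numpy 2.4.6, pandas 2.3.3, matplotlib 3.10.9, R 4.3.3 and limma 3.58.1 were used.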

Additional observations from a re-analysis of the deposited data

Results flagged for a closer look

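In 3 pumps the log2 ratios over Colon26 had opposite signs in LuM1 and NM11 cells at the main scaling. In each of them a sign turned with the scaling or a ratio lay within its scanner error. Opposite sides of the parental line were therefore not established for any of them. The share of all genes with opposite signs is not given here, so the 3 pumps are not set against the array as a whole. Whether the sublines differ in this was not tested, since each line had 1 array. *Abcb1b* had a log2 ratio over Colon26 of -0.29 in LuM1 and 0.33 in NM11 cells, the first of which turned to 0.16 in the value table and the second to -0.15 scaled to *Hprt*. *Abcc1* was at 0.34 in LuM1 and -0.16 in NM11 cells, the latter within its scanner error of 0.20. *Abcc10* was at 0.08 in LuM1 cells, within its scanner error of 0.20, and at -0.47 in NM11 cells.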

How the results depend on the processing

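The counts of pumps at least 2-fold apart kept within 1.5 times their value in 64 of 78 recomputed cases. For LuM1 over Colon26, pumps past 2-fold downward numbered 2 in place of 0 when a signal had only to be significantly above background (the looser rule), with no filter on dim probes (both times *Abcc2* and *Abcc3*) and at a 1.5-fold threshold (*Abcc3* and *Abcc4*). Pumps higher in LuM1 than in NM11 cells numbered 4 in place of 1 scaled to *Hprt*, which shifted the median log2 ratio by 0.59. The shares of all genes under the alternatives are not given here, so the counts in this section are not set against the array as a whole. Pumps lower in LuM1 than in NM11 cells numbered 1 in place of 0 (*Abcc3*) with quantile normalization, the looser rule and no filter, and 2 at 1.5-fold (*Abcb1b* and *Abcc3*). Pumps lower in NM11 than in Colon26 cells numbered 1 in place of 0 without scaling, scaled to *Hprt*, scaled to the E1A spots and at 1.5-fold (*Abcc4*), and 1 with the looser rule and no filter (*Abcc2*). Of 256 recomputed log2 ratios of the pumps, 193 stayed within the scanner error and 63 moved beyond it, and no ratio called at 2-fold turned its sign. Part of the 193 could not move. The looser detection rules and other probe choices leave *Abcb1a*, *Abcc1* and *Abcc4* unchanged, each read by 1 probe above background in every line. Taking the probe brightest in LuM1 cells changed no pump ratio. The 193 thus overstate how firm the ratios are, and the counts of pumps share these fixed ratios. The counts of the related gene lists, to which the same alternatives were applied after seeing the data, kept within 1.5 times their value in 309 of 390 cases. Dim signals are limited by the background, since a spot not significantly above it carries its error as signal. No paired analysis was possible because each line had 1 array. The causes were not tested.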
